A study of Homo sapiens with 6 samples.

Results

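The genes described here are 38 genes of mitosis and the spindle checkpoint, taken as every probe of the array whose annotated gene symbol is 1 of them. Of 16578 named genes on the array these are 38, read by 42 of its 22184 probes, and 4 of the genes (BUB3, CDC25A, CDK1 and NUF2) had 2 probes. RNA came from SH-SY5Y, an established human neuroblastoma line that is a cloned subline of SK-N-SH, and was hybridised as biotinylated cRNA to 6 Illumina bead arrays. On 3 arrays the cells had been given the vehicle dimethyl sulfoxide (DMSO) and on 3 the triazine herbicide atrazine. Both groups are the same line with no other stated treatment. Neither a dose nor a time of exposure was given in the sources used here. Nothing in the labels says that the numbered replicates were grown apart, and the p-values describe the scatter of these 6 samples, which can be technical.

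In dividing cells, the kinase CDK1 with its cyclins drives entry into mitosis, and the Aurora and Polo-like kinases build the spindle and attach the chromosomes to it. Kinetochores are the protein assemblies on centromeres that hold microtubules. The spindle checkpoint keeps the anaphase-promoting complex inactive until each kinetochore is attached, after which securin and cyclin B are destroyed and separase cuts the cohesin that joins sister chromatids. Neuroblastoma lines in culture divide continuously, and most of these genes are transcribed late in the cell cycle through the factor FOXM1 and the DREAM and MMB complexes.

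The arrays of the 2 groups differed as a whole. Mean raw intensity ran from 532.2 to 939.1 units on the DMSO arrays and from 235.1 to 311.3 on the atrazine arrays, and 58.9% to 59.8% of all probes were above background in DMSO against 43.6% to 52.0% in atrazine. Across all features, which are not independent replicates, atrazine arrays correlated with each other at r = 0.964 to 0.994, the lower values involving replicate 2. Of 18 noradrenergic neuroblastoma markers with a probe, 17 were above background on every array and HAND2 on none. Their summed normalized intensity was 63715 to 69338 in DMSO and 44617 to 45394 in atrazine. Of the 17 tested, 3 rose (INSM1, GAP43 and TH), 10 fell and 4 did not pass, where 27.6% of all features rose and 39.6% fell. Markers of mesenchymal-type cells, which neuroblastoma lines can hold, summed to 9594 to 10450 in DMSO and 26478 to 28466 in atrazine. Of 20 such markers, 9 to 11 were above background on an array, 7 of 11 tested rose and 1 fell, and ANXA1, COL3A1, FN1, MEOX1, MEOX2, NOTCH2, WWTR1 and YAP1 were not above background on any. With each array scaled to its median instead, 2 noradrenergic markers rose and 13 fell, and 6 mesenchymal-type markers rose and 4 fell. Of all features, 14.8% rose and 69.9% fell under that scaling. Leukocyte markers summed to 348.1 to 355.4 in DMSO and 633.2 to 671.2 in atrazine, with 0 to 3 of 11 above background on an array and CD14, CD3D, CD3E, FCER1G, ITGAM, MS4A1 and TYROBP on none. Only AIF1 and PTPRC were tested, neither above background on a DMSO array. They were at least 6.99-fold and 1.575-fold higher in atrazine. Liver markers summed to 299.6 to 318.3 and 428.3 to 499.1, with 1 of 9 (SERPINA1) above background. The part of these differences in the results below was not tested.

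The mitosis genes did not move together. PLK1, the Polo-like kinase, and ESPL1, which encodes separase, rose by 5.12-fold and 4.92-fold, and DLGAP5, a spindle protein, fell by 7.18-fold, each read from 1 probe. These sizes depend on the processing: under median scaling PLK1 was 2.99-fold and ESPL1 2.26-fold higher, and without background correction the log2 difference of DLGAP5 was -2.09 in place of -2.84. The 3 named mitotic kinases, 3 of 4 genes of the chromosomal passenger complex and 3 of 4 anaphase genes rose, and 4 of 6 kinetochore genes fell. Of these rises, those of PLK1, INCENP and ESPL1 also stood under median scaling, where the other 6 turned sign. None of the 5 spindle checkpoint genes passed the test after quantile normalization. Under median scaling all 5 passed as lower, and BUB1B, BUB1 and TTK passed in some alternatives other than the scalings. In all, 13 of 38 members (34.2%) were higher and 8 (21.1%) lower at a limma adjusted p under 0.05, and 17 did not pass. Over all 11838 features tested, 27.6% were higher and 39.6% lower, 67.2% together. The members' median log2 difference (atrazine minus DMSO) was 0.14, against -0.18 over all features. In bulk RNA, fewer dividing cells and less of a transcript in each dividing cell cannot be told apart.

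**Figure D1:**
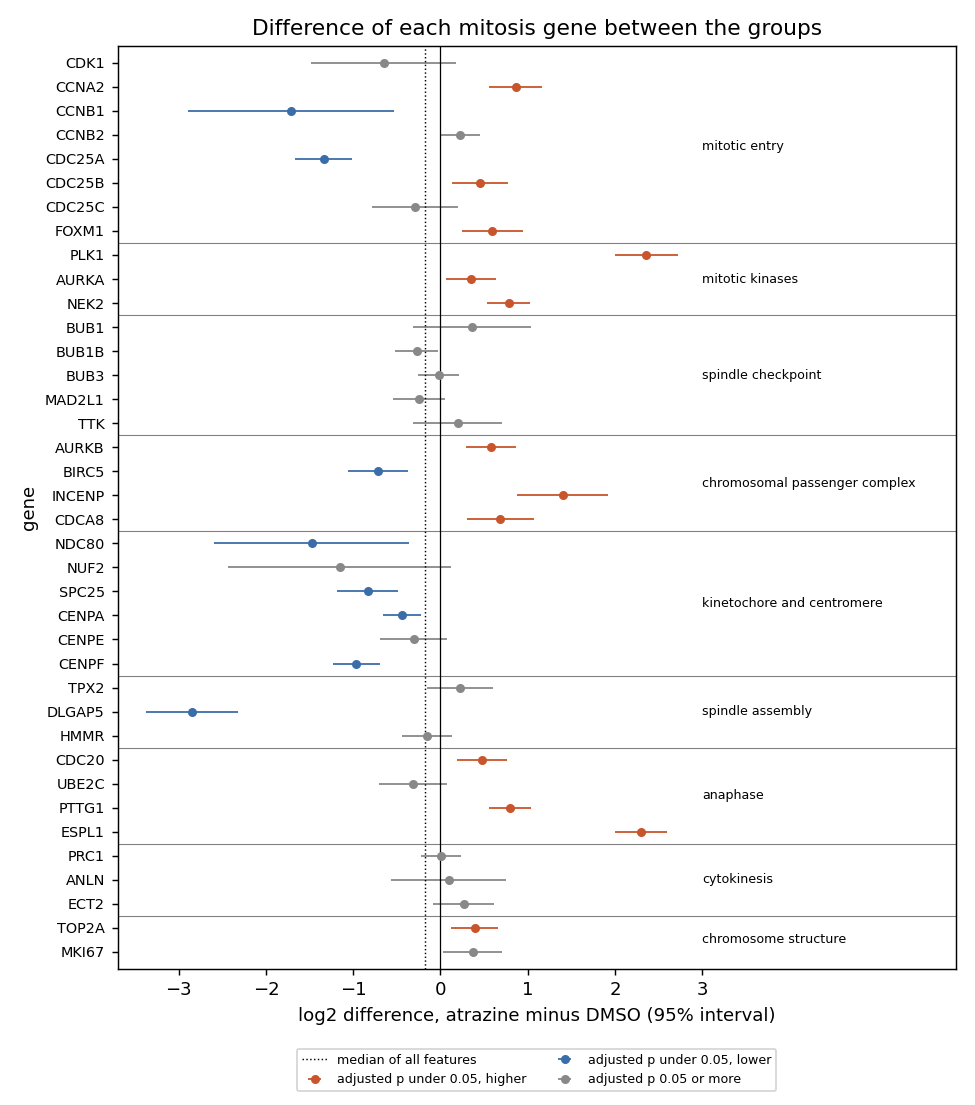
Log2 difference in normalized intensity (atrazine minus DMSO, 3 arrays against 3) of each of the 38 genes, grouped by role, with 95% intervals from the limma fit; colours mark the direction of genes past the threshold and the dotted line is the median of all features, -0.18. PLK1 and ESPL1 lie farthest to the right and DLGAP5 farthest to the left; 18 genes, among them 10 of the 13 marked higher, change sign under median scaling.

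The sign of 18 of the 38 differences depended on the scaling between arrays. The values above come after quantile normalization. When each array was scaled to its median, 3 members were higher (PLK1, ESPL1 and INCENP) and 33 lower, beside 14.8% and 69.9% of all features, and the members' median was -0.91 against -0.94 over all features. Scaled to 18 probes of housekeeping genes, 4 were higher (those 3 and NEK2) and 16 lower, beside 26.4% and 49.6% of all features, with medians of -0.33 and -0.36. Relative to all features, the members' median was thus 0.32 after quantile normalization and 0.026 after either scaling. Both scalings subtract a constant from each array, so the last value is the same for both by construction. All 8 falls were also called under both scalings, and 10 of the 13 rises turned sign under median scaling. Both scalings lowered the median of all features from its -0.18 after quantile normalization. Falls that stay and rises that turn are therefore no separate support for the falls. PLK1, ESPL1 and INCENP were higher, and CDC25A, BIRC5, SPC25, CENPA, CENPF and DLGAP5 lower, past the threshold in each of the 18 alternatives that gave them a value. Among these falls, BIRC5 (-1.06) lay nearest to the -0.94 of all features under median scaling. BIRC5, SPC25 and DLGAP5 had a value in 15 of the 16 alternatives other than both scalings. They had none with detection p under 0.01 on every array, so that stricter filter did not test the falls of these genes.

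**Figure D2:**
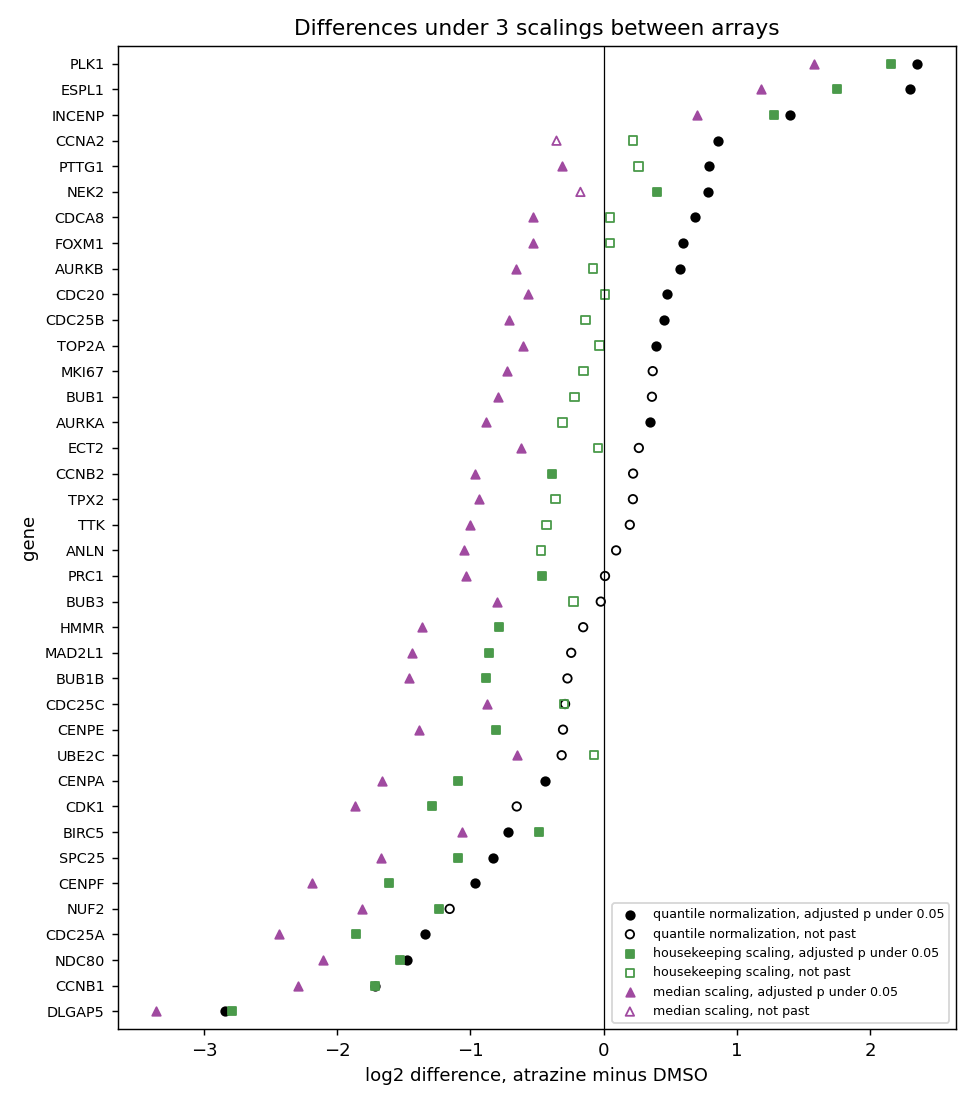
Log2 difference (atrazine minus DMSO) of each of the 38 genes after quantile normalization, scaling to housekeeping genes and scaling to the array median; filled symbols are past an adjusted p of 0.05. Median scaling moves all genes to lower values, and PLK1, ESPL1 and INCENP alone stay above 0 there.

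The promoters of the pair with the largest rise and the pair with the largest fall are shown because their genes share a late cell cycle role and moved in opposite directions. The place of CCNB1 as the second largest fall is not stable: without atrazine replicate 2, with array weights and under both other scalings, CDC25A fell more. Each stretch is the 250 bases before the annotated start, 5′ to 3′ on the gene's strand, from RefSeq (GRCh38.p14). PLK1 lies at chr16:23678639-23678888 on the plus strand, ESPL1 at chr12:53268049-53268298 (plus), DLGAP5 at chr14:55191586-55191835 (minus) and CCNB1 at chr5:69166900-69167149 (plus). Capitals mark CCAAT boxes (CCAAT or ATTGG) and the cell cycle homology element (TTTGAA, its reverse complement TTCAAA, or TTCGAA).
PLK1: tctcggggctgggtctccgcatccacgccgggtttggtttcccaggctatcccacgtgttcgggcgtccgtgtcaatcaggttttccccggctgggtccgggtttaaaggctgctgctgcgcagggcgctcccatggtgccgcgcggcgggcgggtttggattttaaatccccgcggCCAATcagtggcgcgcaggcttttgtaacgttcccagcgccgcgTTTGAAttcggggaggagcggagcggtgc
ESPL1: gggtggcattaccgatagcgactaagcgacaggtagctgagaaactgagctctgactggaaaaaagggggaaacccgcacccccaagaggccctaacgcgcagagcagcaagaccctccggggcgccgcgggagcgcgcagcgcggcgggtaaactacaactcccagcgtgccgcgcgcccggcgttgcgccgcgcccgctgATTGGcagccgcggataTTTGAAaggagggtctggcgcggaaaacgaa
DLGAP5: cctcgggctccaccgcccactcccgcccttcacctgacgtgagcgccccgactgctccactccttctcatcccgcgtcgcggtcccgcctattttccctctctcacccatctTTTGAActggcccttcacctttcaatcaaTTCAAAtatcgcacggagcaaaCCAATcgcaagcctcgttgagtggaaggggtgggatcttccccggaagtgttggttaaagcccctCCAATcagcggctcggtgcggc
CCNB1: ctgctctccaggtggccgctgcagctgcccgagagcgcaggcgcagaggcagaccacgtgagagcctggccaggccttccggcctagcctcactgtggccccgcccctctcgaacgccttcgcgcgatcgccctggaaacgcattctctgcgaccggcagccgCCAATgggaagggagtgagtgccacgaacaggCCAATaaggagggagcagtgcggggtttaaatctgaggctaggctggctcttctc

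PLK1 had 1 CCAAT box, its first base at -73 from the start, and 1 homology element at -29, and ESPL1 had the same pair at -48 and -31. DLGAP5 had 2 CCAAT boxes and 2 homology elements before its start, and CCNB1 had 2 CCAAT boxes and none of the homology letters in this window. Of the members, 31 had a window in the table (250 bases before to 50 after the start), 24 of these (77.4%) held a CCAAT box and 22 (71%) a homology element, on either strand. Among the windows of all 27305 genes in the table, 35.7% and 16.6% did. Both motifs together stood in 6 of 11 members that rose, 4 of 7 that fell and 8 of 13 that did not pass, against 6.58% of all genes. A match is a description of the letters and not a bound site.

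Among genes of mitotic entry, 3 rose, 2 fell and 3 did not pass, and the rises turned sign under median scaling. CCNA2, cyclin A2, which acts with CDKs from S phase to early mitosis, read 9.18, 9.14 and 9.06 on the DMSO arrays and 10.04, 9.76 and 10.17 on the atrazine arrays (normalized log2 intensity, replicates 1 to 3). The groups did not overlap, and the difference was 0.86 (SE 0.13, adjusted p = 8.39e-04), or -0.35 under median scaling (not past). FOXM1, the transcription factor of late cell cycle genes, read 8.34, 7.93 and 8.19 in DMSO and 8.68, 8.97 and 8.59 in atrazine, a rise of 0.59 (SE 0.15, adjusted p = 0.00945). The groups again did not overlap, though the highest DMSO array lay close to the lowest atrazine array. CDC25B, a phosphatase that activates CDK1, read 10.55, 10.15 and 10.17 in DMSO and 10.63, 10.86 and 10.74 in atrazine. It rose by 0.45 (adjusted p = 0.022), a call lost without DMSO replicate 2 (adjusted p = 0.0725) or 3 (0.0803) or atrazine replicate 3 (0.0517).

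CDC25A, the phosphatase that acts on CDKs from the start of S phase onwards, read 9.29, 8.82 and 9.02 in DMSO and 7.60, 7.77 and 7.74 in atrazine. Every atrazine array was lower, with a difference of -1.34 (SE 0.14, adjusted p = 1.56e-04). Its second, dimmer probe was above background on 3 DMSO arrays and on none of the atrazine arrays, where it therefore has only an upper bound. CCNB1, cyclin B1, the main partner of CDK1 in mitosis, read 8.06, 8.17 and 7.76 in DMSO and 6.84, 4.96 and 7.04 in atrazine. All atrazine arrays were lower, and replicate 2 was lowest and not above background. The difference was -1.71 (SE 0.50, adjusted p = 0.0187) and -1.09 without that array, and CCNB1 no longer passed when DMSO replicate 1 (adjusted p = 0.0608) or 2 (0.0529) was left out.

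CDK1 itself read 9.98, 9.65 and 9.53 in DMSO and 9.58, 8.19 and 9.44 in atrazine. The groups overlapped and the difference was -0.65 (SE 0.35, adjusted p = 0.136), or -0.21 without atrazine replicate 2, and its other probe gave -0.58 (adjusted p = 0.339 in a fit of every probe as its own feature). The second B-type cyclin, CCNB2, read 10.36, 10.30 and 10.19 in DMSO and 10.49, 10.57 and 10.46 in atrazine. The difference was 0.22 (95% interval -0.01 to 0.45), and that of CDC25C, the third phosphatase of the family, -0.29 (-0.78 to 0.21). Cyclin B1 and cyclin B2 thus had non-overlapping groups in opposite directions, with the difference of CCNB2 not past the threshold and at -0.96 under median scaling.

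**Figure D3:**
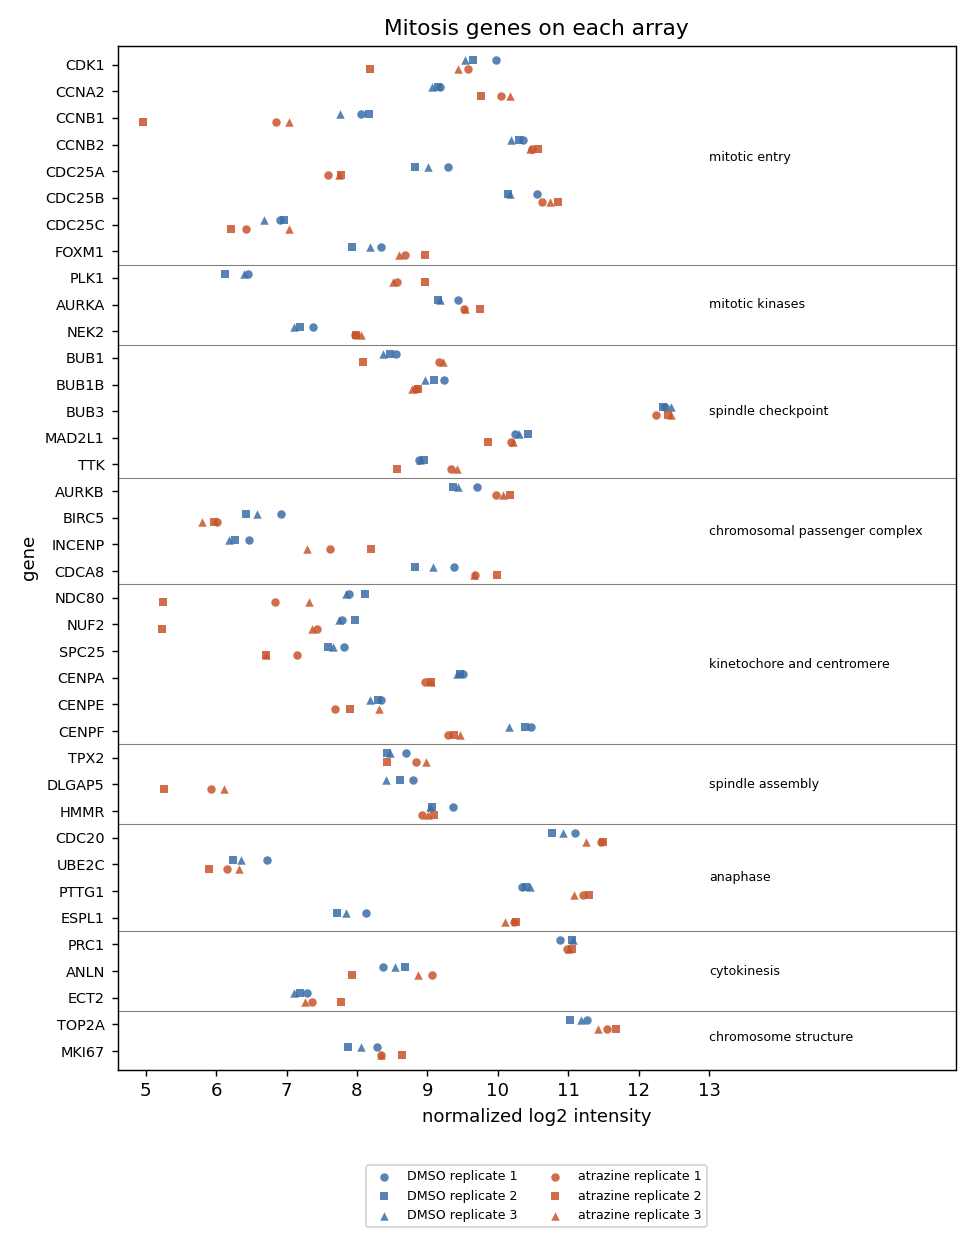
Normalized log2 intensity of each of the 38 genes on each of the 6 arrays; colour marks the group, symbol the replicate number, and lines separate roles. Atrazine replicate 2 (orange squares) lies far below the other atrazine arrays in CDK1, CCNB1, BUB1, TTK, NDC80, NUF2 and ANLN.

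The kinases PLK1, AURKA and NEK2 were all higher in atrazine, and under median scaling only PLK1 was (1.58), AURKA turning to -0.88 and NEK2 to -0.17. PLK1, which acts in centrosome maturation, kinetochore attachment and cytokinesis, read 6.45, 6.13 and 6.40 in DMSO and 8.57, 8.97 and 8.51 in atrazine. The groups were far apart, with a difference of 2.36 (SE 0.15, adjusted p = 2.42e-05). In raw intensity, before any correction, PLK1 read 167.5, 220.1 and 152.0 units in DMSO and 217.1, 295.9 and 292.8 in atrazine, so 2 atrazine arrays were brighter than all DMSO arrays although their mean signal was lower. NEK2, a centrosome kinase, read 7.37, 7.19 and 7.11 in DMSO and 7.97, 7.98 and 8.06 in atrazine. No arrays overlapped, and NEK2 rose by 0.78 (SE 0.11, adjusted p = 5.46e-04). AURKA, the Aurora kinase of the spindle poles, read 9.43, 9.15 and 9.18 in DMSO and 9.53, 9.75 and 9.53 in atrazine. Its rise of 0.35 (adjusted p = 0.0355) was lost without any 1 of 5 arrays, with adjusted p of 0.0524 to 0.113, the exception being DMSO replicate 1.

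None of the 5 spindle checkpoint genes passed the threshold with the settings used here, though BUB1B passed in 8 of the 16 alternatives other than the 2 scalings, and BUB1 and TTK in 2 each. TTK, the MPS1 kinase that starts checkpoint signalling at the kinetochore, read 8.89, 8.96 and 8.89 in DMSO and 9.34, 8.57 and 9.42 in atrazine. BUB1, a kinase and scaffold of the checkpoint, read 8.56, 8.47 and 8.36 in DMSO and 9.17, 8.09 and 9.22 in atrazine. In both, atrazine replicates 1 and 3 were above all DMSO arrays and replicate 2 below them. The differences were 0.20 (SE 0.22) and 0.36 (SE 0.29), and without replicate 2 they were 0.47 (adjusted p = 0.00208) and 0.74 (1.35e-04).

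BUB1B, which encodes the checkpoint protein BubR1, read 9.23, 9.10 and 8.96 in DMSO and 8.83, 8.87 and 8.78 in atrazine. The atrazine arrays were all lower, at a difference of -0.27 (adjusted p = 0.0518), and among its other fits BUB1B ran from -0.33 to -0.19, with the highest adjusted p at 0.14. MAD2L1, whose product MAD2 binds CDC20, read 10.25, 10.43 and 10.30 in DMSO and 10.18, 9.86 and 10.21 in atrazine. Its groups did not overlap either, at a difference of -0.24 (95% interval -0.54 to 0.06, adjusted p = 0.126). BUB3, the platform for BUB1 and BubR1, was the brightest of the 5 and differed by -0.02 (-0.26 to 0.22), while its other probe gave -0.78 (SE 0.50). Under median scaling all 5 were lower and past the threshold.

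In the chromosomal passenger complex, which corrects faulty attachments and then moves to the midzone, INCENP, CDCA8 and AURKB rose while BIRC5 fell. With median scaling, INCENP was at 0.70, and CDCA8 and AURKB turned to -0.53 and -0.66. INCENP, the scaffold, read 6.46, 6.27 and 6.18 in DMSO and 7.61, 8.20 and 7.29 in atrazine. Every atrazine array was higher, by 1.40 on the mean (SE 0.22, adjusted p = 0.00118). In raw intensity INCENP read 169.0, 241.6 and 135.1 units in DMSO and 139.8, 201.4 and 164.3 in atrazine. These dim raw values overlapped, so the groups came apart only after background correction and scaling. AURKB, the kinase of the complex, read 9.71, 9.36 and 9.44 in DMSO and 9.98, 10.17 and 10.08 in atrazine, a rise of 0.58 (adjusted p = 0.00455). CDCA8, borealin, read 9.37, 8.82 and 9.08 in DMSO and 9.68, 9.99 and 9.67 in atrazine, a rise of 0.69 (adjusted p = 0.00797). Neither gene's groups overlapped. BIRC5, survivin, which tethers the complex to centromeres, read 6.92, 6.43 and 6.58 in DMSO and 6.01, 5.97 and 5.79 in atrazine. Its log2 difference was -0.72 (SE 0.15, adjusted p = 0.00374) and was near background in atrazine, above it on 2 of 3 arrays.

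All 6 kinetochore and centromere genes had negative differences, from -1.48 to -0.31, and 4 passed, where 39.6% of all features fell. NDC80, the microtubule-binding subunit of the outer kinetochore, read 7.88, 8.12 and 7.84 in DMSO and 6.84, 5.24 and 7.32 in atrazine. The atrazine arrays were all lower, replicate 2 by far. The difference was -1.48 (SE 0.48, adjusted p = 0.0268) and -0.90 without replicate 2, and the call was lost without any 1 of the DMSO arrays (adjusted p = 0.058 to 0.0725). Its partner NUF2 differed by -1.16 (SE 0.54, adjusted p = 0.0949) on the brighter probe and by -0.48 (SE 0.15, adjusted p = 0.0228 in the fit of every probe) on the other. The brighter probe gave -0.45 without atrazine replicate 2 (adjusted p = 0.00519). On that array NDC80 and the brighter NUF2 probe were not above background, and both entered the test through the DMSO arrays.

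SPC25, in the same complex as NDC80 and NUF2, read 7.82, 7.58 and 7.66 in DMSO and 7.16, 6.71 and 6.70 in atrazine, a difference of -0.83 (adjusted p = 0.00207). CENPF, a large protein of the outer kinetochore that peaks in late G2 and mitosis, read 10.47, 10.39 and 10.17 in DMSO and 9.29, 9.38 and 9.47 in atrazine. Its groups lay well apart, at a difference of -0.96 (SE 0.12, adjusted p = 3.09e-04). CENPA, the centromeric histone H3 variant, read 9.51, 9.46 and 9.42 in DMSO and 8.96, 9.05 and 9.05 in atrazine, a difference of -0.44 (SE 0.09, adjusted p = 0.00385). CENPE, a kinetochore motor, differed by -0.31 (95% interval -0.69 to 0.08).

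Of 3 spindle assembly genes, DLGAP5 fell and TPX2 and HMMR did not pass. DLGAP5 (HURP), which stabilises kinetochore fibres, read 8.80, 8.61 and 8.42 in DMSO and 5.93, 5.26 and 6.11 in atrazine. The atrazine arrays were all far lower, at a difference of -2.84 (SE 0.22, adjusted p = 5.00e-05). In raw intensity DLGAP5 read 791.2, 1219 and 544.8 units in DMSO and 83.1, 74.3 and 109.3 in atrazine, above background on 2 of the 3 atrazine arrays. TPX2, the activator of Aurora A on the spindle, differed by 0.22 (95% interval -0.16 to 0.60), and HMMR, a spindle pole protein, by -0.15 (-0.44 to 0.13). Without atrazine replicate 2, TPX2 gave 0.38 and passed (adjusted p = 0.0153).

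Among anaphase genes ESPL1, PTTG1 and CDC20 rose, and under median scaling ESPL1 did (1.18) while PTTG1 and CDC20 turned to -0.31 and -0.56. ESPL1, separase, read 8.13, 7.72 and 7.85 in DMSO and 10.23, 10.26 and 10.10 in atrazine. The groups were far apart, at 2.30 (SE 0.13, adjusted p = 1.40e-05). Raw intensities of ESPL1 were 505.5, 654.8 and 372.1 units in DMSO and 579.6, 642.1 and 752.6 in atrazine, and thus overlapped before scaling. PTTG1, securin, the inhibitor of separase, read 10.34, 10.41 and 10.46 in DMSO and 11.21, 11.30 and 11.08 in atrazine, a rise of 0.79 (SE 0.10, adjusted p = 4.36e-04). CDC20, the activator of the anaphase-promoting complex, read 11.10, 10.77 and 10.93 in DMSO and 11.46, 11.50 and 11.26 in atrazine, a rise of 0.47 (adjusted p = 0.0114). Both had groups that did not overlap. UBE2C, a ubiquitin-conjugating enzyme of that complex, was dim and differed by -0.32 (95% interval -0.70 to 0.07).

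The cytokinesis genes PRC1, ANLN and ECT2 did not pass, with differences of 0.01 (95% interval -0.22 to 0.24), 0.09 (-0.57 to 0.75) and 0.26 (-0.09 to 0.62). PRC1 bundles midzone microtubules, ANLN (anillin) organises the contractile ring and ECT2 activates RhoA there. ANLN without atrazine replicate 2 was at 0.44 (adjusted p = 0.00925). TOP2A, the topoisomerase that untangles sister chromatids, read 11.27, 11.03 and 11.18 in DMSO and 11.56, 11.68 and 11.42 in atrazine. It rose by 0.39 (adjusted p = 0.0185), a call lost without DMSO replicate 2 or 3 or atrazine replicate 1 (adjusted p = 0.0507 to 0.0587), and turned to -0.61 under median scaling. MKI67, the proliferation antigen Ki-67, read 8.29, 7.88 and 8.05 in DMSO and 8.34, 8.64 and 8.34 in atrazine, a difference of 0.37 (adjusted p = 0.0526). The atrazine arrays of MKI67 were all above the DMSO arrays. It passed in 7 of the 16 alternatives other than the 2 scalings, and under median scaling the difference was -0.73.

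Across the members, groups did not overlap in 15 genes that were higher in atrazine (39.5%) and 11 that were lower (28.9%), where 30.4% and 44.6% of all features did so, 75% together. All 38 were above background on the DMSO arrays and on atrazine replicates 1 and 3, and 31 on replicate 2. The 7 below it there were CCNB1, CDC25C, BIRC5, NDC80, NUF2, DLGAP5 and UBE2C, which therefore entered the test through the DMSO arrays. At 2-fold and past the threshold, 3 of 38 members were higher (PLK1, ESPL1 and INCENP) and 4 lower (DLGAP5, CCNB1, NDC80 and CDC25A). Both shares were below the 12.8% and 12.7% of all features, a difference that was not tested. The members' median level was 8.71 to 8.84 on the DMSO arrays and 8.75 to 8.99 on the atrazine arrays. Of the 31 members above background on 6 arrays, 13 were higher (41.9%) and 4 lower (12.9%), and of all 8509 features above background on 6 arrays, 32.9% and 31.2%. Without atrazine replicate 2, 16 members were higher and 10 lower, and 29.7% and 42.1% of all features. Most members were read by 1 probe. Among 476 genes of the array with 2 probes above background on 6 arrays, the differences of the brightest 2 had the same sign in 57.4%. Across these genes the 2 differences correlated at only r = 0.143. A rise or fall read from 1 probe may thus not hold for another probe of the same gene.

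The rest of the mitotic machinery was taken as whole lists. Among 37 tested other genes of the kinetochore and checkpoint, 1 rose (2.7%), 23 fell (62.2%) and 13 did not pass, with a median of -0.62. Of all features, 27.6% rose and 39.6% fell, with a median of -0.18. The gene that rose was SKA1 (0.42), of the SKA complex that follows microtubule ends. Under median scaling all 37 were lower, beside 69.9% of all features. SKA1 was named after its value was seen. CENPU, of the inner kinetochore, fell by 2.38 in log2 units (adjusted p = 2.35e-05), KNTC1, of the complex that brings dynein and checkpoint proteins, by 1.11, and CENPW was not above background in atrazine and at least 2.62-fold lower. Of the 37, 26 were above background on 6 arrays, 1 of them higher and 12 lower, beside 32.9% and 31.2% of all such features. With a stricter detection p under 0.01 on all 6 arrays, 12 of these genes were tested, 1 higher and 5 lower. Of all 5911 features tested there, 1967 were higher and 1828 lower.

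**Figure D4:**
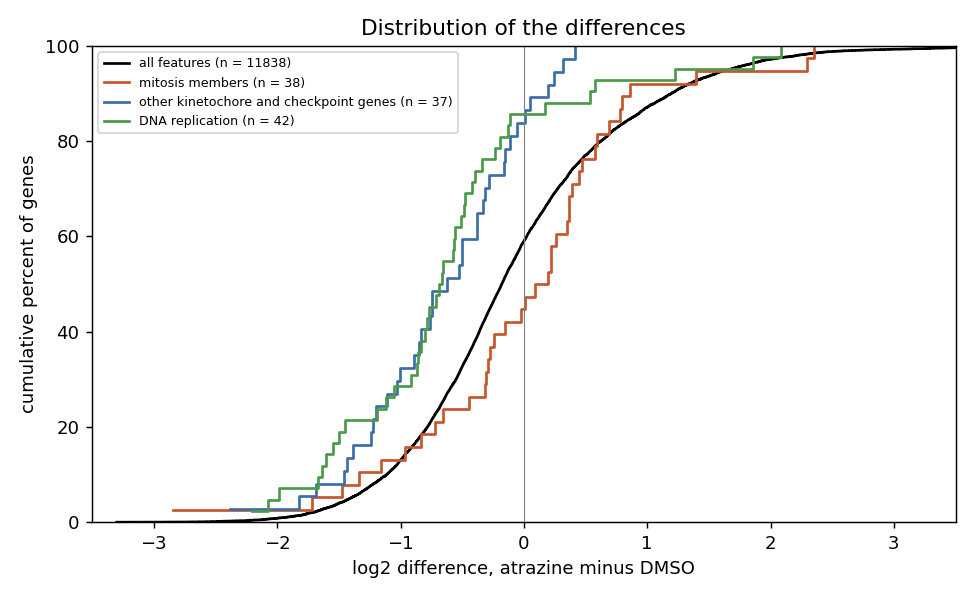
Cumulative percent of genes (vertical axis) at or below each log2 difference, atrazine minus DMSO (horizontal axis), for all features, the 38 mitosis genes, 37 other kinetochore and checkpoint genes and 42 DNA replication genes. The curves of the last 2 lists lie left of all features over most of their range (medians -0.62 and -0.67 against -0.18); under median scaling those medians were -1.41 and -1.70 against -0.94.

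The other lists are read against the 27.6% of all features that rose and the 39.6% that fell, and under median scaling against 14.8% and 69.9%. Of 15 tested genes of the anaphase-promoting complex and its partners, 3 rose (20%) and 5 fell (33.3%), near those shares (3 and 12 under median scaling). Its subunits ANAPC7 and CDC26 rose by 2.48 and 2.00 and, named after its value was seen, CDC27 by 1.22, and FZR1, the coactivator CDH1, was not above background in atrazine and at least 1.76-fold lower. The other 4 that fell, also named afterwards, were ANAPC1 (-0.46), CDC16 (-0.51), ANAPC13 (-0.60) and ANAPC16 (-1.44). Among cohesin and condensin genes, of which 17 were tested, 3 rose and 12 (70.6%) fell (1 and 15 with median scaling). WAPL, which releases cohesin from chromatin, rose by 1.27, as did RAD21 (0.72) and STAG2 (0.87), 2 core subunits named afterwards. STAG1 was not above background in atrazine and at least 2.15-fold lower, and the cohesin loader MAU2 fell by 0.99.

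Of 35 spindle and cytokinesis motors and binders, 9 rose (25.7%) and 10 fell (28.6%), with 0 and 32 under median scaling. CEP192, a centrosome scaffold, fell by 1.28, whereas CLASP2, which binds microtubule plus ends, rose by 0.73 and HAUS4, of the augmin complex, by 1.02. Of 40 further regulators of mitotic entry and targets or subunits of the DREAM and MMB complexes, 9 rose (22.5%) and 16 fell (40%), near the shares of all features (median scaling gave 3 and 34). With detection p under 0.01 on all 6 arrays, 5 of 21 tested fell, beside 1828 of all 5911 features. The rises numbered 5 without DMSO replicate 3 or without atrazine replicate 1, where 2904 and 3069 of all features rose. PPP2R2A, a regulatory subunit of the phosphatase that opposes CDK1, rose by 2.62, and CDKN1A, the CDK inhibitor p21, by 2.08. E2F1, a transcription factor of the G1 to S transition, fell by 1.85 and was above background on 1 atrazine array.

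The DNA replication genes, which are transcribed earlier in the cycle than the mitosis genes, showed 29 falls (69%) and 5 rises (11.9%) among 42 tested. Of all features, 39.6% fell and 27.6% rose. The median of the list was -0.67, against -0.18 over all features. Under median scaling 39 fell and 2 rose, beside 69.9% and 14.8% of all features. Of the 36 above background on 6 arrays, 23 fell and 5 rose, beside 31.2% and 32.9% of all such features. MCM6, of the replicative helicase, was not above background in atrazine and at least 2.27-fold lower, and GINS2, its partner at the fork, fell by 1.98. ORC2, a subunit of the origin recognition complex, rose by 2.08, and the other 4 rises, named after their values were seen, were ORC5 (1.22), POLA1 (1.86), PRIM1 (0.54) and RPA1 (0.58). The difference in direction between the replication and the mitosis genes was not tested.

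**Figure D5:**
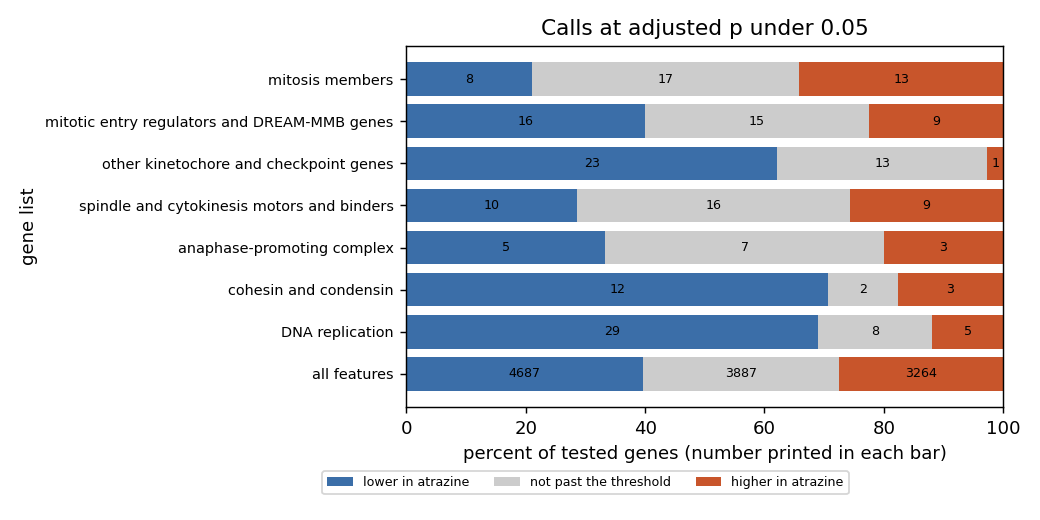
Percent of tested genes (horizontal axis, number printed in each bar) that were lower, not past the threshold or higher in atrazine at an adjusted p under 0.05, for the mitosis genes, 6 further lists and all features, after quantile normalization. The mitosis genes hold 13 rises and 8 falls, the other kinetochore and checkpoint genes 1 and 23; under median scaling the falls outnumber the rises in every list shown.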

How the data were processed

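The authors deposited raw bead intensity for 22184 probes on each of 6 arrays, with no scaling between arrays visible in the values, and a detection p-value beside each, both named so per the file headers. A second table the authors deposited holds processed intensities whose quantiles were the same on every array, used as an alternative. The sources used here name neither scanner software nor the chip of each array. Intensities were background corrected in R 4.3.3 with limma 3.58.1 (normexp from the detection p-values, offset 16), put on the log2 scale and quantile normalized. Of the probes, 19715 carried 1 gene symbol, 0 several and 2469 none here, and 19695 could be tied to a current gene through their gene identifier. A gene was read from its probe of highest mean over all 6 arrays. A feature was tested if its detection p was under 0.05 on 3 of 3 arrays in either group (11838 were), with lmFit and eBayes, two-sided, Benjamini-Hochberg over all features, threshold 0.05. Folds given as "at least" belong to genes with no array above background in 1 group. They set the bright group's mean log2 value against a floor, which on each array is the lowest value of any detected probe, or the gene's own value where that is higher. No exact test of 3 against 3 goes below p = 0.1. For arrays, their number limits the precision. The procedure was tested on simulated data. The members and lists were chosen with earlier results of these data known. Values on every array are given for the 8 largest rises and falls past the threshold and 13 fixed members, and 3 genes of smallest p per further list. Alternatives covered background, offset, scaling, filter, probe choice, variance model, replicate block and leaving out each array, with the probe of a gene kept unless the alternative concerned it.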

Additional observations from a re-analysis of the deposited data

How the results depend on the processing

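After quantile normalization 13 mitosis genes were higher and 8 lower, with a median log2 difference of 0.14. Under median scaling the counts were 3 and 33 with a median of -0.91 (all features 1748 higher and 8278 lower), and under housekeeping scaling 4 and 16 with a median of -0.33 (all features 3125 and 5874). With detection p under 0.01 on all 6 arrays, 30 members were tested, 14 were higher, 4 were lower and the median was 0.31 (all features 1967 higher and 1828 lower, fewer features being tested). Leaving out each array gave 10 to 16 higher, 6 to 10 lower and medians from 0.028 (without atrazine replicate 3) to 0.17. For all features it gave 2844 to 3562 higher and 3945 to 5062 lower. The other alternatives kept the counts within 1.5 times and the median within the spread between arrays (SD 0.10).

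Signs turned under median scaling for CCNA2 (-0.35), CCNB2 (-0.96), CDC25B (-0.71), FOXM1 (-0.53), AURKA (-0.88), NEK2 (-0.17), BUB1 (-0.79), TTK (-1.005), AURKB (-0.66), CDCA8 (-0.53), TPX2 (-0.94), CDC20 (-0.56), PTTG1 (-0.31), PRC1 (-1.04), ANLN (-1.05), ECT2 (-0.62), TOP2A (-0.61) and MKI67 (-0.73). Under housekeeping scaling they turned for CCNB2 (-0.39), CDC25B (-0.14), AURKA (-0.31), BUB1 (-0.22), TTK (-0.43), AURKB (-0.079), TPX2 (-0.36), PRC1 (-0.46), ANLN (-0.47), ECT2 (-0.044), TOP2A (-0.030) and MKI67 (-0.15). PRC1 turned with array weights (-0.054). Leaving out arrays, PRC1 ran from -0.049 to 0.044, BUB3 from -0.066 to 0.040 and ANLN from -0.13 to 0.44. The cause of these moves was not tested.

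With the replicate number as a block, 10 members were higher and 8 lower (all features 2863 and 4007), and CDC25B (adjusted p = 0.0625), AURKA (0.0914) and TOP2A (0.0616) were lost. Same-numbered arrays of the 2 groups deviated from their group means in opposite directions (r = -0.18, -0.45 and -0.29 across features). Arrays of unlike number gave r from -0.21 to 0.44. With 3 arrays in each group these values cannot decide whether the number is a pairing, and the labels do not say. Of the 17 members not past the threshold, the 16 alternatives other than the 2 scalings called BUB1B in 8, MKI67 in 7, CCNB2 in 5 and NUF2 in 3 (NUF2 and CDC25C had a value in 15). BUB1, TTK, CENPE, TPX2 and ANLN were called in 2 each and CDC25C in 1. Without a detection filter NDC80 was lost (adjusted p = 0.0536). The dim atrazine arrays limit what can be said of CCNB1, CDC25C, BIRC5, NDC80, NUF2, DLGAP5 and UBE2C.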
